A study of Homo sapiens with 7 samples.

Results

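Gene expression with and without the EZH2 inhibitor GSK126 was compared in U937 cells that carry the PLZF/RARA fusion, in 4 of the 7 libraries of the study. The comparison sets both libraries of B412_GSK126 against both libraries of B412_mock over all genes, pairs replicate 1 with replicate 1 and replicate 2 with replicate 2, as numbered in the sample titles, and reads the change within each pair. U937 is a human monocytic leukaemia line, and U937 B412 is its derivative that expresses PLZF/RARA once zinc is given. B412_mock received 0.1 mM ZnSO4 with a zinc pretreatment of 24 h, and no later time is recorded for it here. B412_GSK126 received the same zinc for 24 h and then 2.5 µM GSK126 with zinc for 96 h. The remaining 3 libraries, MT_mock, are U937 MT, the parental cells, also in 0.1 mM ZnSO4. They entered the gene filter and the scaling, and served to estimate the spread of the test and as a reference level. Genes that the parental line expressed were also chosen by their counts. The labels do not say whether B412 is a single clone or whether replicates were separate cultures. The p-values therefore reflect the spread between these libraries alone, which may be technical. The zinc dose, the 24 h pretreatment and the fusion are shared by both B412 groups. Their total time in zinc cannot be compared from the values given. Neither B412 cells without zinc nor parental cells with GSK126 were analysed here.

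EZH2 is the catalytic subunit of Polycomb repressive complex 2 (PRC2), which methylates lysine 27 of histone H3 and keeps many developmental and lineage genes silent, mostly at promoters rich in CpG dinucleotides. GSK126 competes with the methyl donor in the catalytic pocket of EZH2, and it blocks methylation without removing the protein. PLZF/RARA joins the repressor PLZF, encoded by ZBTB16, to the retinoic acid receptor alpha, and drives a subtype of promyelocytic leukaemia known for its resistance to retinoic acid. Histone methylation was not measured in these libraries.

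The 4 B412 libraries held 12736244 to 13640251 counts, and 14829 to 15994 genes had at least 1 count. A floor of 3 counts corresponded to 0.22 to 0.236 CPM (counts relative to each library's total count, the usual CPM scale). The first principal component of all 7 libraries took 65.7% of the variance and placed replicate 1 of both B412 groups with MT_mock replicates 1 and 2, and replicate 2 of both with MT_mock replicate 3. No label names a batch behind these 2 library sets. They were assigned by the sign of the first component, so the set term comes from the same values that are tested. The SE and p of fits with the term, and the variation estimated with it, may therefore be too small. Ribosomal protein genes took 10.7% and 10.5% of counts in replicate 1 of mock and GSK126, and 7.89% and 6.91% in replicate 2. The part of the library sets in the results was not tested beyond the fits with a set term and the values within pairs given here.

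By CD33 and SPI1 the cells read as myeloid in all 4 B412 libraries, but not by every marker. CD33, a surface marker of myeloid cells, was at 32.3 and 42.6 CPM in mock replicates 1 and 2 and at 32.6 and 42.6 CPM with GSK126, a within-pair log2 change of -0.01 and -0.01. SPI1, the myeloid master transcription factor, had 1108 and 1972 counts against 1383 and 1913. Of 12 genes taken as U937 identity, ANPEP had 0 and 18 counts in mock and 17 and 39 with GSK126. CSF2RA did not pass the filter on low counts, nor did the monocyte and macrophage genes CD14, CD163, CSF1R and MRC1. The summed level of the 12 genes was 552.7 and 1323 CPM in mock and 658.5 and 1436 CPM with GSK126. Of 20 T, B and NK cell genes 6 were at 0 in all 4 libraries, among them CD3G, CD8A and MS4A1. So were 8 of 16 erythroid and megakaryocyte genes, among them HBB and HBG1. The same held for 6 of 16 fibroblast, epithelial and endothelial genes, among them KRT19 and CDH5. The remaining members had counts in at least 1 of the libraries. NCAM1, at 66.7 and 105 CPM in mock and 92 and 144 CPM with GSK126, lay above CD33. The summed level of 20 T, B and NK cell genes ran from 339 to 735 CPM in mock and from 433 to 699 CPM with GSK126, most of it from CD4, NCAM1 and NKG7. That of 16 erythroid and megakaryocyte genes ran from 15.2 to 21.4 and from 16.4 to 19.1 CPM, and that of 16 fibroblast, epithelial and endothelial genes from 4.08 to 8.98 and from 5.35 to 9.5 CPM. All 3 ranges overlapped between the groups.

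No single gene passed the threshold in edgeR with group means or with the library-set term, and the genes that differed most in both pairs were read at low levels. In edgeR's quasi-likelihood test over 13521 genes, 0 genes (0%) had an adjusted p under 0.05, and 32 had an unadjusted p under 0.05. With the library set as a term 0 genes (0%) passed and 464 had an unadjusted p under 0.05. DESeq2 called 0 genes without the term and 4 with it, MPO, GALNT14, IGFBP2 and TMEM158, all higher with GSK126. Limma-voom called 0 in each case. Biological variation between libraries (common coefficient) was estimated at 58.3% without the set term and at 21.9% with it.

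Within pairs, 113 genes were at least 2-fold higher with GSK126 in both (0.836% of those tested) and 47 were at least 2-fold lower in both (0.348%). A further 57 were 2-fold apart in opposite directions. The change is the difference of log2 CPM after TMM scaling with a prior count of 2, and a single pair has 1 library a group and no test of its own. Pair 1 alone held 819 genes 2-fold higher and 540 lower, and pair 2 held 350 and 224, so most genes past 2-fold in one pair were not past it in the other. The median change over all tested genes was 0.01 in pair 1 and -0.01 in pair 2. Of the tested genes 56.7% had the same sign in both pairs, and the changes of the pairs correlated across genes at r = 0.178, a description over genes that share their libraries.

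The size of the difference followed the level. Among 1110 genes with a mean under 1 CPM, 48 were 2-fold higher, 31 were 2-fold lower and 32 were 2-fold apart in opposite directions. Among 1960 genes at 3 to 10 CPM the numbers were 19, 4 and 1, and among 3849 genes at 30 to 100 CPM they were 4, 0 and 0. Opposite signs were thus about as frequent as one of the shared signs at the lowest level and nearly absent above 3 CPM. Restricted to genes with at least 100 counts over the 4 libraries, 42 were 2-fold higher, 10 were 2-fold lower and 6 went opposite ways.

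**Figure D1:**
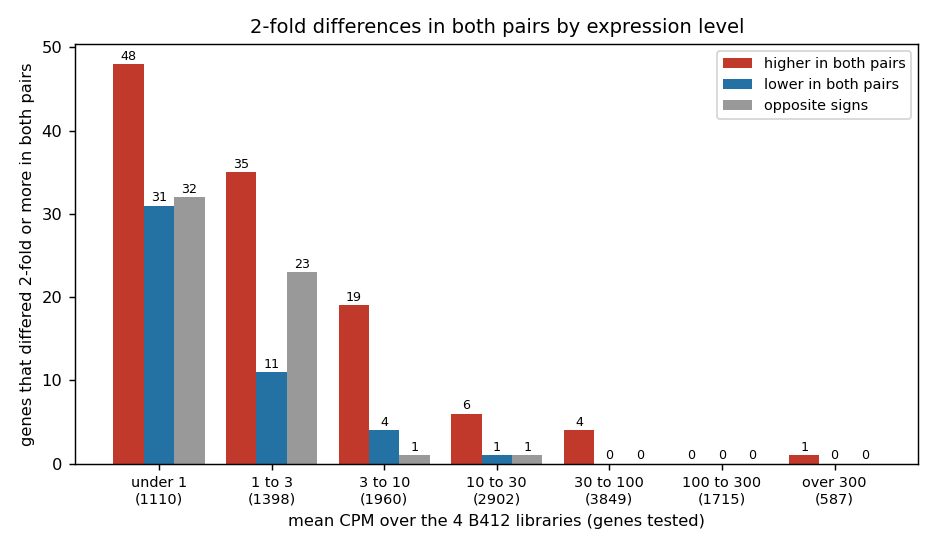
Number of genes that differed at least 2-fold in both pairs, by mean CPM over the 4 B412 libraries, split into those higher in both, lower in both and of opposite signs. Most lie under 3 CPM; at 3 to 10 CPM 19 were higher, 4 lower and 1 of opposite signs, and over 300 CPM MPO was the 1 such gene.

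The genes above 10 CPM that were 2-fold apart in both pairs were named after their values were seen. Higher with GSK126 were SUCNR1, PLXNA1, TNFRSF21, KAZN, SEPN1 and DGAT2 at 10 to 30 CPM, CLU, NEGR1, ALDH1B1 and IGLL1 at 30 to 100 CPM, and MPO. CLU, the secreted chaperone clusterin, had 199 and 174 counts in mock and 557 and 764 with GSK126. NEGR1, a neuronal adhesion protein, had 208 and 229 counts against 857 and 519. For both genes each GSK126 library lay above each mock library, with within-pair log2 changes of 1.36 and 2.11 for CLU and 1.91 and 1.16 for NEGR1. IGLL1, a surrogate immunoglobulin light chain of early B cells, had 672 and 868 counts against 1475 and 1772, again without overlap, and 188, 29 and 216 in MT_mock. For IGLL1 the GSK126 libraries were thus farther from the parental counts than the mock libraries were. ALDH1B1, a mitochondrial aldehyde dehydrogenase, had 153 and 552 counts against 360 and 1363. Here GSK126 replicate 1 lay below mock replicate 2, while the change was 1.104 in pair 1 and 1.291 in pair 2. MILR1 was the 1 gene above 10 CPM that was 2-fold lower in both pairs.

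MPO, the myeloperoxidase of granulocyte granules, had 6006 counts in mock replicate 1 and 23875 in mock replicate 2, against 13679 and 56528 with GSK126. The GSK126 library was the higher one in each pair, but GSK126 replicate 1 lay below mock replicate 2, so the groups overlapped. The within-pair log2 change was 1.07 and 1.23. In edgeR the log2 change was 1.20 ± 0.95 (SE), and with the set term 1.15 ± 0.15 (SE), with an adjusted p of 0.0754. Leaving out GSK126 replicate 2 moved the log2 change without the term to -0.03. With the term, MPO passed without MT_mock replicate 1 (edgeR adjusted p = 0.0144) and without GSK126 replicate 1 (edgeR adjusted p = 0.0495). The parental libraries held 28552, 20480 and 81727 counts, and MT_mock replicate 3, of the same set as B412 replicate 2, was the highest.

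The other genes with the lowest p in the fit with the set term were IGFBP2, GALNT14, TMEM158, DGAT2 and KAZN. IGFBP2, a binding protein of insulin-like growth factors, had 2656 and 2856 counts in mock and 4761 and 5910 with GSK126. Its groups did not overlap, at 210 ± 2.46 CPM in mock and 394 ± 63.3 CPM with GSK126 (SD, n = 2 each), and the within-pair log2 change was 0.72 and 1.04. DGAT2, which makes triglyceride from diacylglycerol, had 112 and 287 counts against 291 and 629. KAZN, which encodes the cytoskeletal protein kazrin, had 70 and 178 against 181 and 463. For DGAT2 and KAZN the 2 middle libraries, mock replicate 2 and GSK126 replicate 1, lay close together. Their log2 changes with the set term were 1.18 ± 0.25 and 1.31 ± 0.28 (SE). The edgeR adjusted p was 0.937 for IGFBP2, GALNT14 and TMEM158 and 1 for DGAT2 and KAZN.

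The largest difference by the smaller of the pair changes, among genes with at least 100 counts, was that of TMEM158, a membrane protein first described as induced by activated RAS. It had 10 and 26 counts in the mock libraries and 93 and 161 with GSK126, against 79, 64 and 42 in MT_mock. Each GSK126 library lay above each mock library and above each parental library. The level was 1.36 ± 0.81 CPM in mock and 9.38 ± 3.63 CPM with GSK126 (SD, n = 2 each), and the within-pair log2 change was 2.89 and 2.53. The edgeR log2 change was 2.78 ± 0.66 (SE, unadjusted p = 0.00426, adjusted p = 1).

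Promoter sequence is shown for genes read at few counts in mock and at more with GSK126, to let the CpG content that is typical of Polycomb targets be seen in them. The 150 bases ahead of the start of TMEM158, CHST10, FIBCD1 and CD52 follow in RefSeq's sequence (GRCh38.p14, read 5′ to 3′ along the gene's strand), in lower case with each CG in capitals. The counts were made by the authors on hg19, and the coordinates are those of the RefSeq table.
TMEM158, chr3:45226288-45226437, minus strand: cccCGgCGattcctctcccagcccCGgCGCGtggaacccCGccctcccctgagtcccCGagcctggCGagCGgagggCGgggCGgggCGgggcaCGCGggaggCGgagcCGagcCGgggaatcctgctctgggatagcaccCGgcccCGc
CHST10, chr2:100417669-100417818, minus strand: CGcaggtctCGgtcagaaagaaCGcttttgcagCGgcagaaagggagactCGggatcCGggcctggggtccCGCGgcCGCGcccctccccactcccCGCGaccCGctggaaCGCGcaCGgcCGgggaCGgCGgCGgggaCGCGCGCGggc
FIBCD1, chr9:130939248-130939397, minus strand: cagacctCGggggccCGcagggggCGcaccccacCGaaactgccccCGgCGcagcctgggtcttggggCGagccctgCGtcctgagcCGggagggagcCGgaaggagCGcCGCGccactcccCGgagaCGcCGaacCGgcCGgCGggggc
CD52, chr1:26317808-26317957, plus strand: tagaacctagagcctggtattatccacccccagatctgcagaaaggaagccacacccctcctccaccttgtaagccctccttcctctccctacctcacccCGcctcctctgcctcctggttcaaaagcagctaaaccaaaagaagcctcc
The printed windows hold 19 CG in TMEM158, 24 in CHST10, 19 in FIBCD1 and 1 in CD52. Over the 250 bases ahead of the start, CG was counted in the 10 of the 12 genes of the largest differences that have 1 start in the table. The number was 39 for TMEM158, 36 for CLCN2, 29 for CMTM8, 28 for TMEM177 and 27 for CHST10, BAIAP2L1 and TRIM9. It was 5 for TDRG1, 3 for CD52 and 0 for STEAP3-AS1. Over all 35116 starts in the table the median was 11, and 32.4% of starts held at least 20. These starts belong to 27305 genes, tested here or not, so they are not a like baseline for the 10 tested genes. A comparison of the whole set with all tested genes was not made, since only 71.8% of the tested genes were found in the table. Whether CG is more frequent in these genes than in tested genes was therefore not tested. CG content describes the window and says nothing on whether PRC2 or methylated H3K27 lay there.

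CHST10, a sulfotransferase that makes the HNK-1 carbohydrate, had 19 and 39 counts in mock and 70 and 117 with GSK126. CLCN2, a chloride channel, had 17 and 38 against 53 and 106, and TMEM177, a mitochondrial protein of cytochrome oxidase assembly, had 23 and 34 against 69 and 92. In these 3 genes both GSK126 libraries lay above both mock libraries and the change was alike in the pairs, 1.67 and 1.52 for CHST10, 1.43 and 1.42 for CLCN2, and 1.40 and 1.37 for TMEM177. CD52, a small glycoprotein of lymphocyte and monocyte surfaces, had 9 and 33 counts against 52 and 98, without overlap, and a change of 2.206 and 1.501. TRIM9, a ubiquitin ligase best known from neurons, had 1 and 21 against 25 and 63, with GSK126 replicate 1 just above mock replicate 2. CMTM8, a membrane protein of the chemokine-like factor family, had 2 and 36 counts against 23 and 124. BAIAP2L1, an adaptor that binds membrane and actin, had 3 and 33 against 28 and 107. In both of the last genes GSK126 replicate 1 lay below mock replicate 2, so the groups overlapped.

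HLA-DRA, the alpha chain of the MHC class II molecule HLA-DR, had 0 and 17 counts in mock and 18 and 97 with GSK126. The parental libraries held 0, 112 and 122, so the reading of 0 was not particular to mock. The summed counts gave a ratio of 6.54 (95% counting interval 3.91 to 11.6), an interval that leaves out the spread between libraries. The within-pair log2 change was 3.40 and 2.36. In edgeR the log2 change was 2.73 ± 2.245 (SE, unadjusted p = 0.265). With the set term it was 2.85 ± 1.988 (SE, unadjusted p = 0.209). GSK126 replicate 1, at 1.32 CPM, lay just above mock replicate 2, at 1.262 CPM. TDRG1, a gene named for its expression in testis development, had 2 and 12 counts against 16 and 80. FAM86JP, a pseudogene, had 6 and 9 counts against 57 and 51, without overlap, and a change of 2.81 and 2.25. STEAP3-AS1 had 0 and 25 against 20 and 81. Pseudogenes share reads with their parent genes, and the library protocol does not mark the strand, so the values of FAM86JP and STEAP3-AS1 are uncertain. The GSK126 libraries lay above the mock libraries without overlap in 9 of these 12 genes and in 7.33% of all tested genes. The choice of the 12 by their change nearly fixes this count, and nothing is read from it.

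Fewer genes were at least 2-fold lower in both pairs than at least 2-fold higher. By any amount, 28.4% of tested genes were lower in both pairs and 28.3% were higher. The lower genes with at least 100 counts reached smaller differences. STXBP2, a syntaxin-binding protein needed for the release of cytotoxic and myeloid granules, had 186 and 143 counts in mock and 89 and 62 with GSK126. Both GSK126 libraries lay below both mock libraries, and all 4 lay below the parental counts of 712, 1140 and 421. The within-pair change was -1.17 and -1.19, and the edgeR log2 change with the set term was -1.20 ± 0.30 (SE, unadjusted p = 0.00199, adjusted p = 1). SLC5A9, a sugar transporter, had 68 and 40 counts against 21 and 18, and OASL, an interferon-induced member of the oligoadenylate synthetase family, had 32 and 66 against 12 and 30. SLC5A9 and OASL, like STXBP2, had no overlap between the groups, where 5.18% of all tested genes lay lower without overlap. The choice of these genes by their change favours a lack of overlap, and nothing is read from it.

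In the other 5 of the 8 genes with the largest negative differences the groups overlapped, and in each group replicate 1 was the higher library. MILR1, an inhibitory receptor of mast cells, had 432 and 114 counts against 224 and 52, a change of -1.06 and -1.11. LINC01355, a long non-coding RNA, had 146 and 50 against 74 and 19, and LOC202181 had 170 and 34 against 85 and 15. The pseudogenes SLC7A5P2 and MRPL45P2 had 95 and 23 against 37 and 8, and 62 and 21 against 29 and 9, and share the doubt on pseudogene reads. For MILR1, LINC01355, LOC202181 and SLC7A5P2 the log2 change of the edgeR fit without a term turned positive when a library was left out.

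Genes that the parental line expressed and the mock B412 line nearly lacked were looked at next, as a description. With at least 20 counts in each MT_mock library and at most 5 counts over both mock libraries, 21 genes were found. With GSK126, 7 of them had at least 10 counts in all and at least 5 in each library: GALNT14, ROBO3, FIBCD1, ACTL8, PTPRF, C5orf42 and DIRC3. The other genes stayed low, and 8 were at 0 in both GSK126 libraries. The rule selects on low mock counts, which by itself lets the other group lie higher. The reverse rule, at most 5 counts over both GSK126 libraries, found 11 genes, of which 0 had at least 10 counts in mock and 9 were at 0. Both rules were set after the data were seen.

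GALNT14, which starts mucin-type O-glycans, had 0 and 3 counts in mock, 13 and 58 with GSK126 and 460, 353 and 376 in MT_mock. The ratio of summed counts was 22.9 (95% counting interval 7.52 to 114), and the GSK126 level was 9.48% of the parental one. This interval leaves out the spread between libraries, and the rule had selected on the same mock counts, so the ratio is a description only. PTPRF, a tyrosine phosphatase of the cell surface, was read at 0 and 0 counts in mock, 12 and 8 with GSK126 and 427, 227 and 451 in the parental libraries, which with 3 counts per mock library as a floor is at least 3.22-fold higher. ACTL8, an actin-like gene, had 0 and 2 against 5 and 18. The GSK126 level of PTPRF and ACTL8 was 2.84% and 2.45% of the parental level. ROBO3, a receptor of axon guidance, had 0 and 4 counts against 19 and 11, and C5orf42, a gene of cilium formation, had 0 and 4 against 11 and 8. DIRC3, a long non-coding RNA, had 0 and 3 against 5 and 7. These 3 genes were read with GSK126 at 17.7%, 17.4% and 18.9% of the parental level.

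FIBCD1, a membrane receptor for acetylated sugars such as chitin, had 0 and 0 counts in mock, 13 and 13 with GSK126 and 37, 34 and 33 in MT_mock. It was the 1 gene with 0 counts in both mock libraries and at least 10 in each GSK126 library, at least 4.18-fold higher with the same floor, and its level was 39.5% of the parental one. The reverse, 0 with GSK126 and at least 10 in each mock library, was met by 0 genes. At 5 counts in each library the numbers were 9 and 2. Among the genes that stayed at 0 with GSK126 were SLC27A2, a fatty acyl-CoA synthetase with 326, 177 and 608 parental counts, PIR with 134, 177 and 121, and CD276, an immune checkpoint protein, with 55, 95 and 106. For PIR the overlapping entry PIR-FIGF is not an independent gene.

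**Figure D2:**
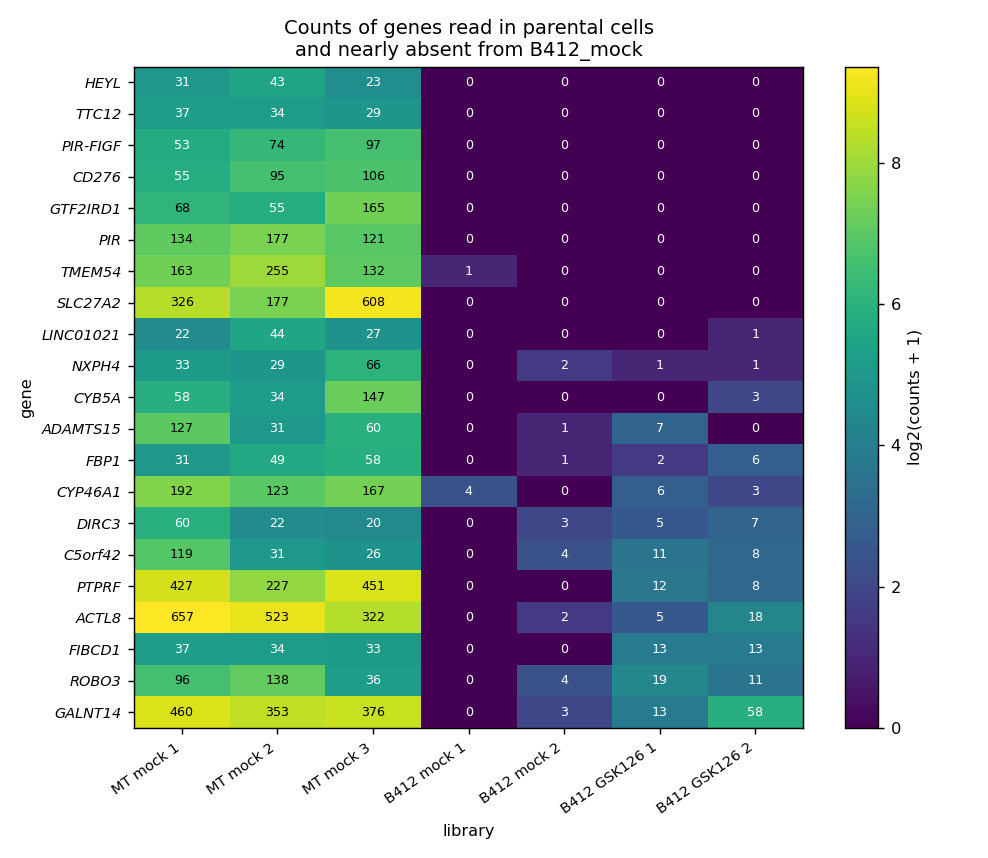
Counts in each of the 7 libraries for the 21 genes with at least 20 counts in every parental library and at most 5 over both mock libraries, coloured by log2(counts + 1). The bottom rows, down to GALNT14 with 13 and 58, carry counts in both GSK126 libraries, while the top 8 rows are at 0 there.

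No gene of the Polycomb machinery itself passed, and the differences were small. EZH2, the target of GSK126, had 920 and 428 counts in mock and 1173 and 647 with GSK126, a within-pair log2 change of 0.23 and 0.58. The level of EZH2 was 52 ± 28.6 CPM in mock and 67 ± 26.9 CPM with GSK126 (SD, n = 2 each). That spread, which includes the difference between the library sets, exceeded the difference between the groups. With the set term the edgeR log2 change was 0.42 ± 0.22 (SE, unadjusted p = 0.0838). EZH1, the second catalytic subunit, had 507 and 267 against 549 and 219 (log2 change -0.01 and -0.29). EED, which reads methylated H3K27, had a log2 change of -0.01 and 0.29, and SUZ12, the core scaffold, one of 0.03 and -0.17. Of 12 tested PRC2 genes 1, EZH2, was higher in both pairs and 6 were lower in both, beside 28.3% and 28.4% of all tested genes. The list medians were -0.09 and -0.14. PHF1, an accessory subunit that binds methylated H3K36, had -0.30 and -0.38. Of 23 PRC1 genes, whose complex ubiquitinates histone H2A, 6 were higher and 9 lower in both pairs, with medians of 0.01 and -0.11. None of the PRC1 and PRC2 genes had an unadjusted p under 0.05 with the set term (edgeR), beside 464 of all 13521 tested genes.

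Genes that oppose Polycomb were mostly lower in both pairs, by small amounts. Of 17 tested demethylases and other opposing factors 12 (70.6%) were lower in both pairs and 2 (11.8%) higher, beside 28.4% and 28.3% of all tested genes. The medians were -0.17 and -0.29. KDM6A, which removes methyl groups from H3K27, had 128 and 354 counts in mock and 79 and 233 with GSK126, a change of -0.80 and -0.61. The groups overlapped, and the edgeR log2 change with the set term was -0.72 ± 0.31 (SE, unadjusted p = 0.0372, adjusted p = 1). KDM6B, the other H3K27 demethylase, had 231 and 441 against 303 and 278, of opposite sign in the pairs. KMT2A, KMT2D and EP300, which methylate H3K4 or acetylate H3K27, were at -0.33 and -0.57, at -0.33 and -0.33, and at -0.29 and -0.51. ARID1A, a subunit of the SWI/SNF remodeller, had 6955 and 5477 counts against 6208 and 4404, while SMARCA4, its ATPase, had 11655 and 4643 against 12532 and 5564. No member passed in either edgeR fit.

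HOX genes, the best-known Polycomb targets, did not share a direction. Of 39 HOX genes 18 were tested and 14 were at 0 in all 4 libraries, all of them in the HOXB and HOXD clusters. Of the 18, 8 (44.4%) were higher and 3 (16.7%) lower in both pairs, beside 28.3% and 28.4% of all tested genes. Their medians were 0.25 in pair 1 and -0.06 in pair 2. HOXA9, HOXA10 and HOXA11 had 0.41, 0.15 and 0.48 in pair 1 and -0.46, -0.53 and -0.55 in pair 2, opposite signs in each. HOXB4 and HOXC11 were higher in both pairs, at 18 and 5 against 29 and 8 counts and at 10 and 3 against 17 and 4. HOXA13 was lower in both, at -0.32 and -0.31. HOXC13 had 8 counts in GSK126 replicate 1 and 0 in the other 3 libraries.

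Of 57 developmental regulators that Polycomb often silences, 20 were tested and 23 were at 0 in all 4 libraries. Of the tested ones 9 were higher and 5 lower in both pairs, and the medians were 0.10 and 0.14. BARX1, a homeobox factor, had 0 and 2 counts in mock and 17 and 6 with GSK126, a ratio of 11.1 (95% counting interval 2.75 to 97.3). LHX6 and PAX9 had 4 and 30 against 12 and 50 and 12 and 46 against 27 and 64. NEUROG2 had 0 and 15 counts against 27 and 17, a difference in pair 1 alone. The abundant member IRX3 had 9236 and 6225 against 8369 and 4023, lower in both pairs. No member passed in either fit.

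Granule proteins of granulocytes were the list with the highest pair 1 median. Of 13 tested members, out of 23, 7 (53.8%) were higher in both pairs and 1 (7.69%) lower, beside 28.3% and 28.4% of all tested genes. The medians were 0.60 and 0.21, and 6 of the 23 were at 0 in all 4 libraries. Beside MPO, ELANE, which encodes neutrophil elastase, had 238 and 536 counts in mock and 512 and 767 with GSK126, a change of 0.98 and 0.51. RNASE3, a ribonuclease of eosinophil granules, had 32 and 99 against 65 and 126, and EPX, eosinophil peroxidase, had 9 and 16 against 15 and 28. In ELANE and RNASE3 GSK126 replicate 1 lay below mock replicate 2, and in EPX the same held. CTSG, cathepsin G, was at 16037 and 13946 counts against 17053 and 10826, lower in both pairs by -0.03 and -0.38. Only MPO of the 13 had an unadjusted p under 0.05 with the set term (edgeR), beside 464 of all 13521 tested genes.

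Of 16 tested monocyte and macrophage genes 8 were lower and 3 higher in both pairs, beside 28.4% and 28.3% of all tested genes, and 5 had opposite signs. The medians were -0.03 and -0.17. Of the 16, 4 had an unadjusted p under 0.05 with the set term (edgeR), beside 464 of all 13521 tested genes, and 0 passed. CTSS, the lysosomal protease of antigen processing, had 440 and 1305 counts in mock and 280 and 869 with GSK126, a change of -0.77 and -0.60 (edgeR with the set term, unadjusted p = 0.00643, adjusted p = 1). ITGAM, the integrin CD11b that marks myeloid maturation, had 329 and 561 against 206 and 400, and FCGR2A, an Fc receptor, had 179 and 432 against 129 and 295. In all 3 the GSK126 library was the lower one of each pair, while the groups overlapped. CD68 had 136 and 286 counts against 107 and 117, a change of -0.46 and -1.28. In this bulk RNA fewer cells of a kind and less RNA per cell cannot be told apart. Of 11 tested genes of U937 identity 2 were higher and 2 lower in both pairs and 7 had opposite signs, with medians of 0.20 and -0.19. The higher ones were ITGB2 and ANPEP and the lower ones CD86 and, with a sign that turns under scaling by the library total, CD33; CD86, a costimulatory ligand, had 33 and 50 counts against 28 and 44. ITGB2, the integrin partner of ITGAM, had 1561 and 1678 against 2163 and 5373, higher without overlap. ANPEP, which encodes CD13, had 0 and 18 against 17 and 39, with overlap.

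Myeloid transcription factors were mixed: of 16 tested, 4 were higher and 3 lower in both pairs, with medians of 0.28 and -0.04. GFI1, a repressor that guides granulocyte development, had 709 and 3179 counts against 1411 and 3487, and ID1 had 3 and 10 against 11 and 20. MYB, a progenitor factor, was lower in both, with 3247 and 5247 against 2962 and 3585, and so was CEBPE, a factor of late granulocytes, with 120 and 80 against 105 and 50. Of 14 tested retinoic acid targets 4 were higher and 6 lower in both, with medians of 0.07 and -0.33. CD38, an NAD-consuming ectoenzyme, had 5 and 54 counts against 3 and 36, and UBA7, the activating enzyme of ISG15, had 1538 and 1234 against 1364 and 733. RARA itself had 208 and 532 against 313 and 681, at 0.46 and 0.35, and ZBTB16 had 22 and 28 against 7 and 36, at -1.54 and 0.33. MT_mock held 4, 0 and 0 counts of ZBTB16 and 284, 261 and 475 of RARA. Gene counts by themselves do not tell the fusion transcript from the native RARA and ZBTB16, and the share of each was not tested. Of 14 tested fusion partners, RXR and corepressor genes 3 were higher and 4 lower in both pairs.

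Interferon-stimulated genes were lower in both pairs more often than tested genes as a whole. Of 32 tested members 17 (53.1%) were lower in both and 4 (12.5%) higher, beside 28.4% and 28.3% of all tested genes, and the medians were -0.20 and -0.41. OASL and IFI44L were the 2 members at least 2-fold lower in both pairs, IFI44L at 46 and 6 counts in mock and 12 and 1 with GSK126. IFIT2, which restrains viral translation, had 39 and 133 against 27 and 57, and SAMD9L, a restriction factor, had 106 and 179 against 75 and 111. RSAD2, the antiviral enzyme viperin, had 207 and 319 against 178 and 157. IRF1, a transcription factor of the response, had 1098 and 1601 against 854 and 825, lower without overlap. MX1 and USP18 were higher in both pairs, at 14 and 76 against 68 and 92 and at 71 and 174 against 128 and 237. None passed in either edgeR fit, and 1 of the 32 had an unadjusted p under 0.05 with the set term, beside 464 of all 13521 tested genes.

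MHC class II genes differed among themselves. Of 11 tested members 5 were higher and 2 lower in both pairs, with medians of 0.18 and -0.02. HLA-DPA1 had 0 and 4 counts against 13 and 15, and HLA-DRB5, a beta chain, had 17 and 54 against 66 and 110, both higher without overlap, as were 7.33% of all tested genes. HLA-DMB, a peptide exchange chain, had 39 and 71 against 30 and 37, lower without overlap, as were 5.18%. HLA-DPA1, HLA-DRB5 and HLA-DMB were named for their change, which favours a lack of overlap, and nothing is read from it. HLA-DRB1, the other beta chain, had 248 and 188 against 279 and 170, and CD74, the invariant chain, 1708 and 4189 against 2105 and 3392. Reads of HLA genes that resemble each other may be split between them by the authors' counting. Of 17 MHC class I genes 7 were higher and 4 lower in both pairs. CALR, a chaperone of class I folding, had 8121 and 6894 counts against 10476 and 10193, and TAPBP, the peptide-loading protein tapasin, had 3539 and 3389 against 2685 and 2683. Both of these genes were free of overlap, in opposite directions.

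NF-kappaB genes did not share a direction, and more immediate early genes were higher than lower in both pairs. Of 21 tested NF-kappaB subunits and targets 7 were higher and 6 lower in both pairs; REL had 439 and 295 counts against 375 and 189, and SOD2 had 437 and 676 against 571 and 905. Of 20 tested immediate early genes 9 (45%) were higher and 4 (20%) lower in both pairs, beside 28.3% and 28.4% of all tested genes. Their medians were 0.42 in pair 1 and 0.01 in pair 2. DUSP2, a phosphatase of MAP kinases, had 89 and 73 against 143 and 171, without overlap, and FOSL1, a partner of JUN, had 42 and 26 against 65 and 49. IER3 had 14 and 9 counts against 0 and 3.

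MYC targets of ribosome biogenesis were the list with the largest share of members higher in both pairs. Of 25 tested genes 16 (64%) were higher in both and 1 (4%) was lower, beside 28.3% and 28.4% of all tested genes. The medians were 0.06 in pair 1 and 0.55 in pair 2, so the difference lay mostly in pair 2. ODC1, the first enzyme of polyamine synthesis, had 1358 and 2001 counts in mock and 2396 and 4818 with GSK126, without overlap, at 0.70 and 1.26. RRP9, a component of the U3 particle, had 963 and 430 against 1500 and 903, with overlap, at 0.52 and 1.06. MYC had 1224 and 4265 against 1832 and 5937, at 0.46 and 0.47. RRP12 and BOP1 had 0.20 and 0.22 in pair 1 and 0.99 and 1.02 in pair 2. The share of counts on ribosomal protein genes, in contrast, was lower with GSK126 in each pair, at 10.7% and 10.5% in pair 1 and 7.89% and 6.91% in pair 2. Of the 25 genes 4 had an unadjusted p under 0.05 with the set term (edgeR), beside 464 of all 13521 tested genes, and 0 passed.

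Metallothioneins differed between the pairs. These zinc-binding proteins are induced by zinc, which all libraries received. MT2A had 111798 and 40476 counts in mock and 125051 and 90710 with GSK126, a change of 0.04 in pair 1 and 1.15 in pair 2. MT1X had 16107 and 11273 against 16034 and 31605, and MT1G had 33517 and 18743 against 33751 and 39427. The mock library of replicate 2 held the lowest counts of MT2A, MT1X and MT1G among the 4, and 7 of 21 tested members of the list were at least 2-fold higher in pair 2. MT2A, MT1X and MT1G were named after their values were seen. MT1M was 2-fold higher in both pairs, at 3 and 8 against 11 and 23 counts, and SLC39A14, a zinc importer, had 199 and 658 against 309 and 1132. The zinc dose was the same in both groups, and a part of zinc handling in these values was not tested.

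Chaperones and stress genes were more often higher than lower. Of 22 tested heat shock genes 11 (50%) were higher and 2 (9.09%) lower in both pairs, beside 28.3% and 28.4% of all tested genes. The medians were 0.09 and 0.26. HSPE1, the mitochondrial co-chaperonin, had 659 and 598 counts against 1012 and 1201 without overlap, at 0.50 and 0.99 (edgeR with the set term, unadjusted p = 0.00327, adjusted p = 1). HSPA5, the chaperone of the endoplasmic reticulum, had 1296 and 2784 against 1779 and 3505. Of 22 tested genes of serine synthesis and the ATF4 response 10 (45.5%) were higher and 2 (9.09%) lower in both pairs, with medians of 0.12 and 0.05. PSAT1, an enzyme of serine synthesis, had 1803 and 4642 counts against 2559 and 5879, and ASNS, asparagine synthetase, had 1514 and 1396 against 1998 and 1644.

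Lipid genes were described in a pair of lists. Of 25 tested genes of fatty acid activation and triglyceride synthesis 10 were higher and 5 lower in both pairs, with medians of 0.12 and 0.13. Beside DGAT2, ACACB, a mitochondrial acetyl-CoA carboxylase, had 141 and 164 counts against 248 and 216, without overlap, and FABP5, a fatty acid carrier, had 72 and 95 against 98 and 172. PLIN5, a lipid droplet coat protein, had 13 and 2 against 24 and 8. Of 23 tested cholesterol genes 4 were higher and 10 lower in both, with medians of -0.33 in pair 1 and 0.05 in pair 2. FDFT1 and SQLE, consecutive enzymes on squalene, went opposite ways, FDFT1 at 2796 and 5590 against 2066 and 4911 and SQLE at 165 and 589 against 204 and 910.

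Proliferation and survival genes showed small differences. Of 32 cell cycle and replication genes 10 were higher and 7 lower in both pairs, and the medians were -0.09 and 0.17. CCNB1, the mitotic cyclin, had 1719 and 2620 counts against 2185 and 3514, PCNA 4568 and 5126 against 5987 and 6161, and CDT1, a licensing factor, 6478 and 6976 against 6335 and 5014. PCNA was higher and CDT1 lower with GSK126, both without overlap. Of 15 CDK inhibitors and other brakes, some of which EZH2 is known to silence in cancer, 1 was higher and 3 lower in both pairs, and 11 had opposite signs. CDKN2D, the inhibitor p19, had 297 and 350 against 259 and 215, and GADD45A 128 and 234 against 150 and 259. Of 16 BCL2 family genes 1 was higher and 6 lower in both, among them BCL2 with 1121 and 2383 against 1067 and 1899 and BBC3, a pro-apoptotic member, with 207 and 459 against 161 and 317. Of 15 DNA methylation genes 3 were higher and 4 lower, and MBD2, a reader of methylated CpG, had 404 and 823 against 648 and 1082. No member of these lists passed in either edgeR fit.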

How the data were processed

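The members of the comparison and the gene lists were chosen with earlier results of these data known. RNA of 7 libraries in 3 groups was measured. Per the labels' protocols, cDNA was made with a SMART-Seq kit and sheared, with no strand mark and no molecular identifiers named, so counting intervals (95%) and the floor of 3 counts cover counting error only. The submitters' processing notes name Subread, featureCounts, FastQC and the build hg19 (versions and annotation: not given in the sources used here). As deposited by the authors, the tables hold raw counts per gene symbol, 26364 symbols in 1 table a group, with no normalization.

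Genes were filtered with filterByExpr (minimum count 10, total 15), which kept 13521 and left 12843 untested, scaled by TMM and tested in R 4.3.3 with edgeR 4.0.16 (quasi-likelihood, robust, two-sided, Benjamini-Hochberg, threshold 0.05) over all 7 libraries with group means. The pair change is log2 CPM (prior count 2) of GSK126 minus mock. Alternatives used a library-set or replicate term, DESeq2 1.42.0, limma-voom 3.58.1, other scalings, prior counts and filters, and leaving out each library. The procedure was tested on simulated data. Total counts per B412 library were 12736244 to 13640251.

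Named genes were the 12 with the largest positive and the 8 with the largest negative smaller pair change among those with at least 100 counts, the 6 of lowest p with the set term, core Polycomb and fusion genes, and up to 4 per list of 30 (680 of 683 entries found); others are named as chosen after their values were seen, or serve to fill out a list. Promoter sequences came from RefSeq's table of GRCh38.p14. MT_mock entered the filter, the scaling, the fits, the component analysis and the reference levels. Its counts also served to choose the 21 genes that mock nearly lacked.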

Additional observations from a re-analysis of the deposited data

How the results depend on the processing

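No gene passed in the edgeR test (0 of 13521), and 0 passed with the library-set term, on the 4 B412 libraries without a covariate, with DESeq2, limma-voom, RLE scaling or no filter on low counts. Settings that did give calls were DESeq2 with the set term, with 4 genes, and edgeR with the set term and no filter, with 34, of which 33 were higher with GSK126. With the set term and a library left out the number lay between 0 and 3, with 1 without MT_mock replicate 1 and 3 without GSK126 replicate 1. The cause was not tested.

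In the replicate block fit of the 4 B412 libraries 14 genes passed (edgeR, 1 residual degree of freedom, 12947 genes), all higher with GSK126, against 0 without the block. They include MPO, TMEM158, IGFBP2, DGAT2, KAZN, ODC1, CLU, NEGR1, IGLL1 and ALDH1B1. Libraries of the same number deviated together from their group means (r = 0.847 over genes), but no label says what a number marks, and the 2 pairs are too few to show that the numbers pair the samples.

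Genes at least 2-fold higher, lower and of opposite signs numbered 63, 23 and 19 at a prior count of 5, 42, 10 and 6 with at least 100 counts, and 336, 201 and 285 at 1.5-fold. At a prior count of 0.5 the lower and the opposite genes came to 80 and 114, and with no filter the opposite ones to 116. Genes read with GSK126 alone were 9 at 5 counts and 0 at 20, and with mock alone 2 at 5. Leaving a library out leaves a single pair and gives no such count. Scaling moved no median of all genes by more than 0.03 on the log2 scale, and turned the sign for CD33 and for the mean of the pair medians of the DNA methylation and U937 identity lists, all near 0.

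With 1 B412 library left out and no set term, the log2 change ran from -0.0282 to 2.30 for MPO, -0.26 to 1.19 for EZH2, -1.02 to 0.64 for EZH1, -0.0326 to 0.317 for EED, -0.20 to 0.0626 for SUZ12, -1.53 to 0.045 for KDM6A, -0.52 to 0.14 for KDM6B, -1.79 to 0.39 for ZBTB16 and -0.17 to 1.03 for RARA. It ran from -2.58 to 0.0227 for LINC01355, -3.10 to 0.10 for SLC7A5P2, -2.62 to 0.41 for MILR1 and -2.997 to 0.69 for LOC202181. Such a fit sets 1 library of one set against libraries of both sets. Differences under 3 counts, 0.22 to 0.236 CPM in the B412 libraries, were not detectable; the part of depth in the number of calls was not tested.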
